A study of Homo sapiens with 8 samples.

Results

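SJRH30, a human alveolar rhabdomyosarcoma cell line that carries the PAX3-FOXO1 fusion, was followed through 24 h in 1% oxygen, and the late hypoxic cultures (24 h) were compared here with the early ones (6 h). The comparison was defined by the array titles and uses 4 of the 8 arrays of the time course, 2 at 6 h and 2 at 24 h. The other 4 arrays, 2 before hypoxia (0 h) and 2 at 12 h, give the starting level and the course between. All cultures were grown in serum-supplemented RPMI medium, and hypoxia came from a chamber gassed with nitrogen and carbon dioxide. Normoxic cultures of the same age were not analysed here. The effect of hours in hypoxia therefore cannot be told apart from that of hours in culture. All arrays come from 1 cell line.

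Cells short of oxygen stop degrading the alpha subunits of the hypoxia-inducible factors (HIF), which then bind promoters and enhancers together with ARNT and switch on glucose transport, glycolysis, angiogenic signals and their own oxygen sensors. The early response is largely a direct transcriptional programme. Longer hypoxia is known to add slower changes in metabolism, stress defence and differentiation state, and the oxygen sensors that accumulate feed back on HIF. Rhabdomyosarcoma cells are tumour cells with an unfinished skeletal muscle programme.

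RNA levels are deposited as log2 values made with RMA, a method that corrects background, equalises arrays and summarises the probes for a transcript, so a difference of 1 is 2-fold. All levels below are log2 RMA values and all changes are differences between them; levels of different genes are not comparable in amount, since each probe set binds with its own strength. Of 22277 probe sets, 19064 carried 1 gene symbol and gave 11963 genes. The pair of 6 h arrays differed by a median of 0.0666 over genes and the pair of 24 h arrays by 0.0985. A 6 h array and a 24 h array correlated at 0.99694 to 0.99745 over genes, against 0.99886 between the 6 h replicates and 0.998 between the 24 h replicates. Spike-in RNAs added before labelling (24 poly-A control probe sets) averaged 8.80 at 6 h and 8.98 at 24 h, and hybridisation controls 10.3 at both. On the 0 h arrays the poly-A controls averaged 8.32 and 8.36 and the hybridisation controls 10.05 and 10.07, lower than on all other arrays. The part of these control differences in the results was not tested. In bulk RNA a change in the number of expressing cells and a change in RNA per cell cannot be told apart.

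The labels give the cell type as muscle fibroblasts. Of 8 muscle tumour markers, levels at 6 h ran from 3.96 for the embryonic myosin MYH3 to 12.0 for MYOD1, with MYOG, the other muscle-specifying factor, at 10.1, the muscle receptor subunit CHRNA1 at 11.5 and desmin (DES) at 9.26. Of 8 fibroblast markers, levels at 6 h ran from 3.57 for POSTN to 8.12 for COL1A1, with DCN at 5.11 and LUM at 6.80. VIM and FN1, which fibroblasts and many other cells make, read 13.55 and 13.56, and 11.80 and 11.87. Since levels of different genes are not comparable in amount, these values describe the cells and do not settle the label. None of 14 fibroblast, 7 blood, 8 epithelial and 8 neural marker genes passed the limma test between 6 and 24 h; 4, 1, 2 and 0 of them had an unadjusted p under 0.05, as had 2277 of 11963 genes. Of 9 endothelial markers KDR alone passed (11.1%, against 2.78% of all genes), and it is described below.

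The promoters of 5 called genes that hold a motif of the factors named here are shown first, as examples of genes that moved after 6 h; they are not among the largest changes, apart from GCLM, which is among the 12 largest falls. PGK1 and ENO1 (glycolytic enzymes), GPI (glucose-6-phosphate isomerase) and AK4 (a mitochondrial adenylate kinase and HIF target) were higher at 24 h than at 6 h. GCLM (the modifier subunit of the enzyme that starts glutathione synthesis, and a target of the antioxidant factor NRF2) was lower. Each line gives the 250 bases upstream of the RefSeq start site in GRCh38.p14, read 5′ to 3′ on the gene's strand. PGK1 is at chrX:78103998-78104247 on the plus strand, ENO1 at chr1:8878687-8878936 on the minus strand and GPI at chr19:34364742-34364991 on the plus strand. AK4 is at chr1:65147302-65147551 on the plus strand and GCLM at chr1:93909431-93909680 on the minus strand. Capitals mark, on either strand, the core of the hypoxia response element (ACGTG or GCGTG) in the first 4 genes and the core of the antioxidant response element (TGACNNNGC) in GCLM.
PGK1: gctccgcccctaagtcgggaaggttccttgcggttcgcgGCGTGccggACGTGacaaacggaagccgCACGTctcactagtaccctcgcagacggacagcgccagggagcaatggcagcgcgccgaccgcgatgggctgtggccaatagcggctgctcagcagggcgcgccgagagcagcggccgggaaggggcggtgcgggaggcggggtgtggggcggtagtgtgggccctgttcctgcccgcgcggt
ENO1: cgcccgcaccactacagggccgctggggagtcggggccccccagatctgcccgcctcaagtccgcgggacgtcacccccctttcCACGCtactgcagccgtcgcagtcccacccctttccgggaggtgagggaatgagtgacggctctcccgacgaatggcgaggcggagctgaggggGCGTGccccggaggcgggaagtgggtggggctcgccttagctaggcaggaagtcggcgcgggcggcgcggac
GPI: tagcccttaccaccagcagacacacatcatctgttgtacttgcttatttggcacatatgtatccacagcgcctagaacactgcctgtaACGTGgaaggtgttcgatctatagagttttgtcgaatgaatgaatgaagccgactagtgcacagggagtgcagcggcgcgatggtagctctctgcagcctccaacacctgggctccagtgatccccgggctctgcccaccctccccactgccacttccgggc
AK4: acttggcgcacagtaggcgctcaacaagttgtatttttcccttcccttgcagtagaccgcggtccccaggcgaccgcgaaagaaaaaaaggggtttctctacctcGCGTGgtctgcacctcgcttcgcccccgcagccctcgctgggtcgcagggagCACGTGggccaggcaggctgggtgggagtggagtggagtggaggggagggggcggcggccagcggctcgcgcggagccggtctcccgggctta
GCLM: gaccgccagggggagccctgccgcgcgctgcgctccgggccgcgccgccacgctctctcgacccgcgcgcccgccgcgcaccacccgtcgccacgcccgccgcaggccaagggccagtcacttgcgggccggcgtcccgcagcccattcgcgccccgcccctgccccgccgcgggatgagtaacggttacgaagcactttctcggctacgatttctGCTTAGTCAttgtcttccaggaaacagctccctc
PGK1 held 3 matches to the hypoxia core, ENO1 2, GPI 1 and AK4 3. In PGK1 the match on the plus strand that lies farthest from the start site begins 211 bases upstream. In AK4 a pair of matches on opposite strands overlap in 1 palindrome. Such short motifs are common: 53.2% of the promoters of all genes compared (5085 of 9562) held at least 1 hypoxia core, as did 43.1% of all 27305 promoters in the RefSeq table. The share was 54.7% among genes higher at 24 h (98 of 179) and 44.4% among genes lower at 24 h (44 of 99). In the glycolysis list it was 60.0% (12 of 20), and among its 10 members that were higher at 24 h it was 70.0%. In the list of HIF core targets it was 81.5% (22 of 27). The antioxidant core was present in 11.9% of promoters of all genes compared and in 28.6% of those of NRF2 pathway genes (6 of 21). Its share was 15.1% among genes higher at 24 h (27 of 179) and 14.1% among genes lower at 24 h (14 of 99). These are counts of letters in a window, not of bound sites.

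Between 6 and 24 h in hypoxia 221 genes rose and 112 fell. The nuclear envelope gene SPAG4, the IGF-binding proteins IGFBP5 and IGFBP2, the secreted glycoprotein STC1, the integrin chain ITGB2, muscle myoglobin (MB) and the glucose-regulated arrestin TXNIP were among the largest rises. The quinone reductase NQO1 fell most. Counts come from limma, fitted to all 8 arrays, at a Benjamini-Hochberg adjusted p under 0.05 over 11963 genes: 333 genes were called, 2.78% of those tested, with 1.85% higher and 0.936% lower. Changes were moderate. Only 9 rises and 1 fall reached 2-fold, and the median called change was 0.44 for rises and -0.36 for falls, against 0.002 over all genes. The replicates of all 333 did not overlap between 6 and 24 h, which also held for 5741 genes, 48.0% of those tested. The count rests on every array of the pair of groups: it was 18 without 6 h replicate 1, 44 without 6 h replicate 2, 66 without 24 h replicate 1, 59 without 24 h replicate 2, and 123 without either 0 h array. Without the dimmer 50% of genes 508 rose and 529 fell. With all genes kept but an intensity trend in the prior variance, 526 rose and 513 fell. The predominance of rises thus depends on the dim filter and on the variance estimate.

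**Figure D1:**
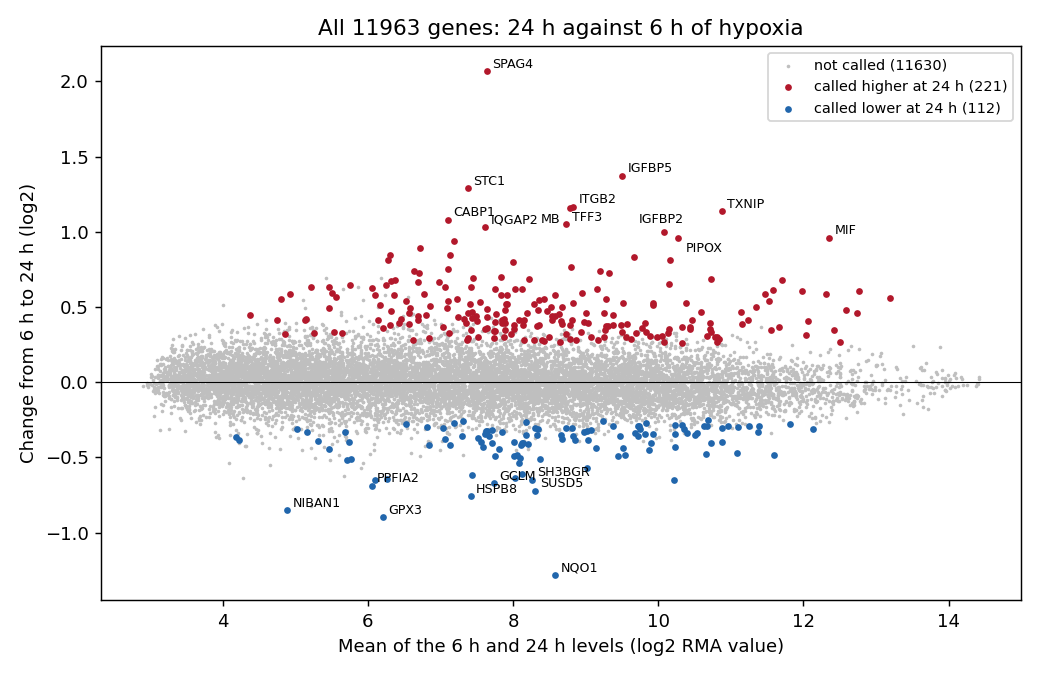
Change from 6 h to 24 h (log2, vertical) against the mean of the 6 h and 24 h levels (log2 RMA value, horizontal) for 11963 genes, each a point; red marks the 221 genes called higher, blue the 112 called lower. SPAG4 at 2.07 is the highest point and NQO1 at -1.28 the lowest called one, while most genes lie close to 0.

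To see what late hypoxia added and what it reversed, each called gene was placed by its earlier change from 0 to 6 h. Between 0 and 6 h limma called 423 genes (3.54% of those tested), and between 0 and 24 h 2123 (17.7%). Of the 221 rises, 86 (38.9%) continued a rise of at least 0.25 made by 6 h, 130 (58.8%) had moved less than 0.25 by then and so were late, and 5 turned back from an early fall. Of the 112 falls, 25 (22.3%) continued an early fall, 82 (73.2%) were late and 5 turned back from an early rise. Over all genes, 4.9% would be placed as continuing, 3.7% as turned back and 91.4% as late. Both changes use the 6 h arrays, with opposite sign, so these shares describe where the levels lie and were not tested. The poly-A spike-in controls averaged 8.32 and 8.36 on the 0 h arrays and 8.81 and 8.79 on the 6 h arrays. How far such an offset moves genes across the dividing change of 0.25 was not tested. At 12 h the mean lay between the 6 h and 24 h means for 204 of the rises (92.3%) and 92 of the falls (82.1%), against 32.2% of all genes. Called genes were selected for a wide gap between their 6 h and 24 h means, into which a 12 h mean falls more readily. The difference in shares was therefore not tested. The rises had gone a median of 42.8% of the way by 12 h and the falls 66.2%.

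Most of the largest rises extended the early response. SPAG4, a SUN-domain protein of the nuclear envelope, read 5.03 and 5.14 at 0 h, 6.73 and 6.49 at 6 h, 7.89 and 7.80 at 12 h, and 8.55 and 8.80 at 24 h. Its level was higher at each later time, without overlap. The change from 6 to 24 h was 2.07 ± 0.11 (SE), or 4.19-fold, with an adjusted p of 0.0003593 by limma. STC1, a secreted glycoprotein hormone, read 6.76 and 6.70 at 6 h and 8.27 and 7.76 at 24 h, a rise of 1.29 ± 0.17 (adjusted p 0.01273). The 24 h replicates of STC1 differed by more than those of most genes, and the call was lost without 6 h replicate 1 (adjusted p 0.11), 6 h replicate 2 (0.111) or 24 h replicate 1 (0.0532). ITGB2, the beta chain of the leukocyte integrins, read 8.31 and 8.17 at 6 h and 9.33 and 9.49 at 24 h (1.17 ± 0.08, adjusted p 0.0009494). MIF, a secreted cytokine, read 11.85 and 11.89 at 6 h and 12.75 and 12.91 at 24 h (0.96 ± 0.07, adjusted p 0.001057). TFF3, a secreted trefoil peptide, and CABP1, a calcium-binding protein, had early rises (0.33 and 0.37) that were not themselves called (limma adjusted p 0.0703 and 0.179). From 6 to 24 h TFF3 rose by 1.05 ± 0.08 and CABP1 by 1.08 ± 0.13. Unlike TFF3, CABP1 lost its call without 6 h replicate 1 (0.094), 6 h replicate 2 (0.0929) or 24 h replicate 1 (0.0573).

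In the IGF axis, 2 of 14 measured genes rose (14.3%, against 1.85% of all genes) and none fell, with a median change over the list of 0.03. Both are IGF-binding proteins, which hold insulin-like growth factors outside the cell. IGFBP5 read 7.97 and 7.90 at 0 h, 8.83 and 8.81 at 6 h, 9.53 and 9.42 at 12 h, and 10.16 and 10.22 at 24 h. All 4 times are separate, and the rise from 6 to 24 h was 1.37 ± 0.06, or 2.59-fold (limma adjusted p 0.000229). IGFBP2 read 9.59 and 9.56 at 6 h and 10.45 and 10.70 at 24 h, a rise of 0.998 ± 0.08 (adjusted p 0.002231). The receptor IGF1R (-0.05) and the binding protein IGFBP3 (0.04) did not pass.

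**Figure D2:**
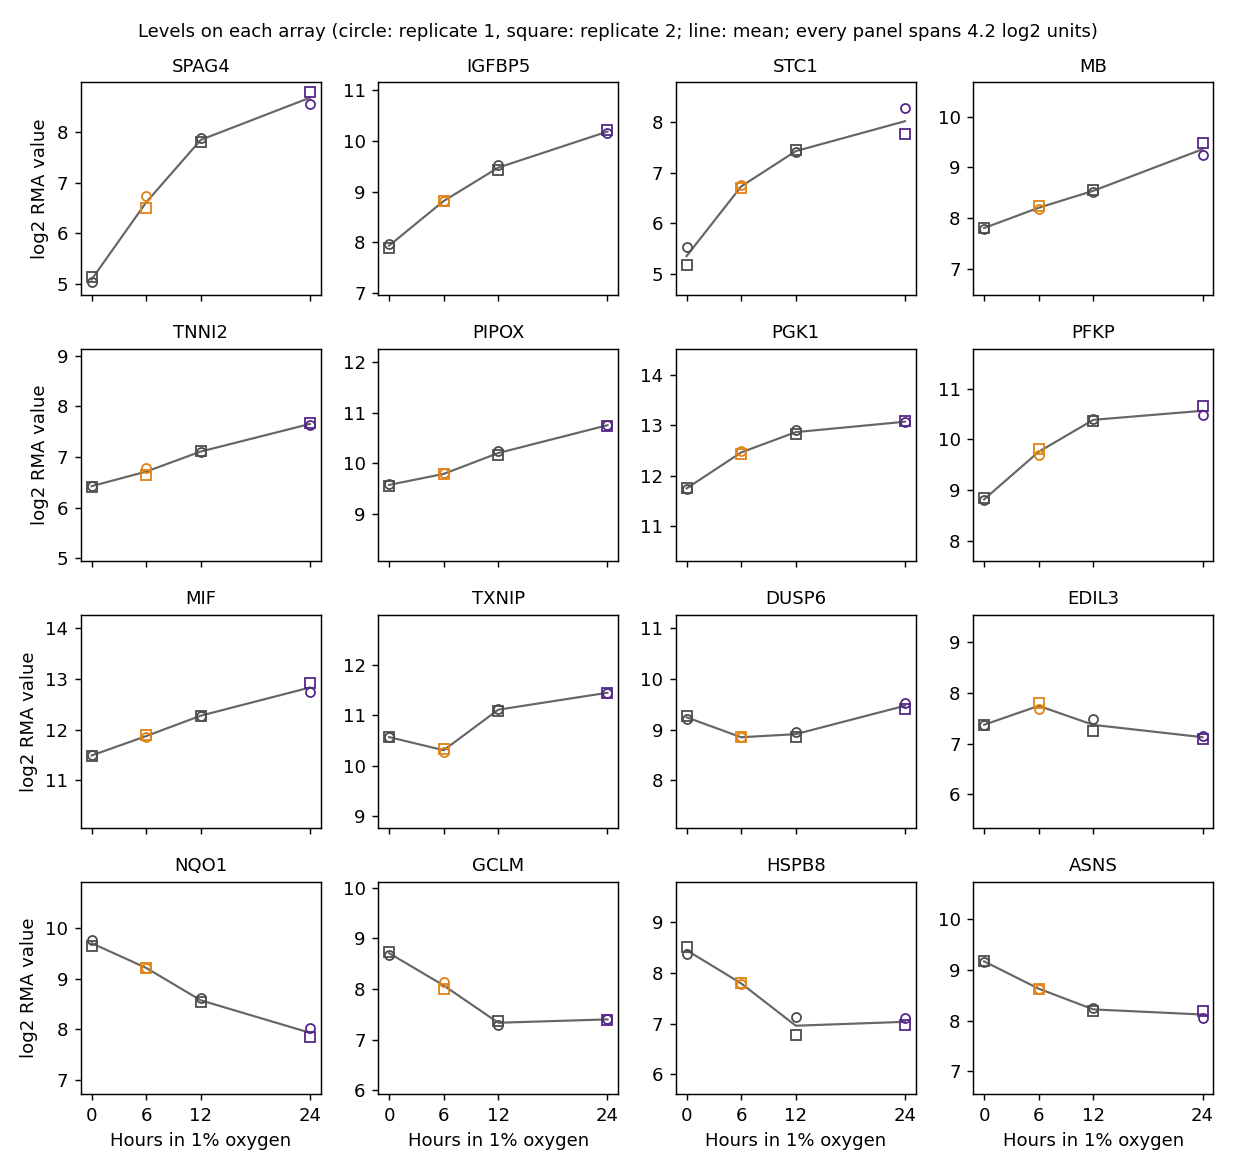
Log2 RMA value (vertical, each panel spanning 4.2 units) on each array against hours in 1% oxygen (horizontal) for 16 genes; circles are replicate 1, squares replicate 2, lines join the means. SPAG4 and IGFBP5 climb at every step, TXNIP and DUSP6 dip at 6 h and end above their 0 h levels, EDIL3 peaks at 6 h, and NQO1 falls at every step.

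Among HIF core targets some went on rising and most did not pass. Of 30 measured, 9 rose from 6 to 24 h (30.0%, against 1.85% of all genes), none fell, and the median change was 0.12 against 0.002 over all genes. EGLN3, the oxygen-dependent prolyl hydroxylase that marks HIF for degradation, read 9.01 and 8.92 at 6 h and 9.77 and 9.61 at 24 h (0.72 ± 0.09, limma adjusted p 0.01273). AK4, which tunes mitochondrial ATP handling, read 9.83 and 9.82 at 6 h and 10.50 and 10.45 at 24 h (0.66 ± 0.06, adjusted p 0.003647). BNIP3, a mitophagy receptor, had made nearly all of its rise early: it read 9.35 and 9.22 at 0 h, 12.22 and 12.26 at 6 h, and 12.63 and 12.55 at 24 h. Its later gain was 0.35 ± 0.07 (adjusted p 0.03962). INSIG2, an ER protein that restrains sterol synthesis, rose by 0.39, NDRG1, a stress-responsive growth regulator, by 0.42 and PDK1, a kinase that switches off pyruvate dehydrogenase, by 0.38. PGK1, ENO1 and ALDOA are the other 3 and are counted again under glycolysis. The count of 9 was 0 without 6 h replicate 1, 3 without 6 h replicate 2, 24 h replicate 1 or 24 h replicate 2, and 6 without either 0 h array.

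Several of the best-known early targets were not called between 6 and 24 h. VEGFA, the main angiogenic factor, read 8.32 and 8.56 at 0 h, 10.38 and 10.31 at 6 h, and 10.38 and 10.19 at 24 h. The difference from 6 to 24 h was -0.06, with a 95% confidence interval from -0.28 to 0.16. SLC2A1, the glucose transporter GLUT1, read 8.16 and 8.19 at 0 h, 10.21 and 10.14 at 6 h, and 10.18 and 10.14 at 24 h (-0.02, interval -0.14 to 0.11). DDIT4, an inhibitor of mTORC1, changed by -0.08 (interval -0.25 to 0.09) and the transcriptional repressor BHLHE40 by -0.03 (interval -0.15 to 0.10). For SLC2A1 and BHLHE40 the interval excludes a further rise beyond 0.11; for VEGFA it leaves room for 0.16. HK2, the inducible hexokinase, read 11.15 and 11.26 at 6 h and 11.08 and 10.99 at 24 h, a difference of -0.17 (interval -0.33 to -0.01) whose adjusted p of 0.234 did not pass. PFKFB3, which makes the activator of phosphofructokinase, differed by -0.10 (interval -0.26 to 0.06) and the histone demethylase KDM3A by -0.10 (interval -0.24 to 0.03). MXI1 (0.27, adjusted p 0.0559) and BNIP3L (0.37, adjusted p 0.0574) lay just short of the threshold. Transcripts of the factors themselves did not pass either: HIF1A differed by -0.08, EPAS1 by 0.08 and ARNT by 0.16.

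**Figure D3:**
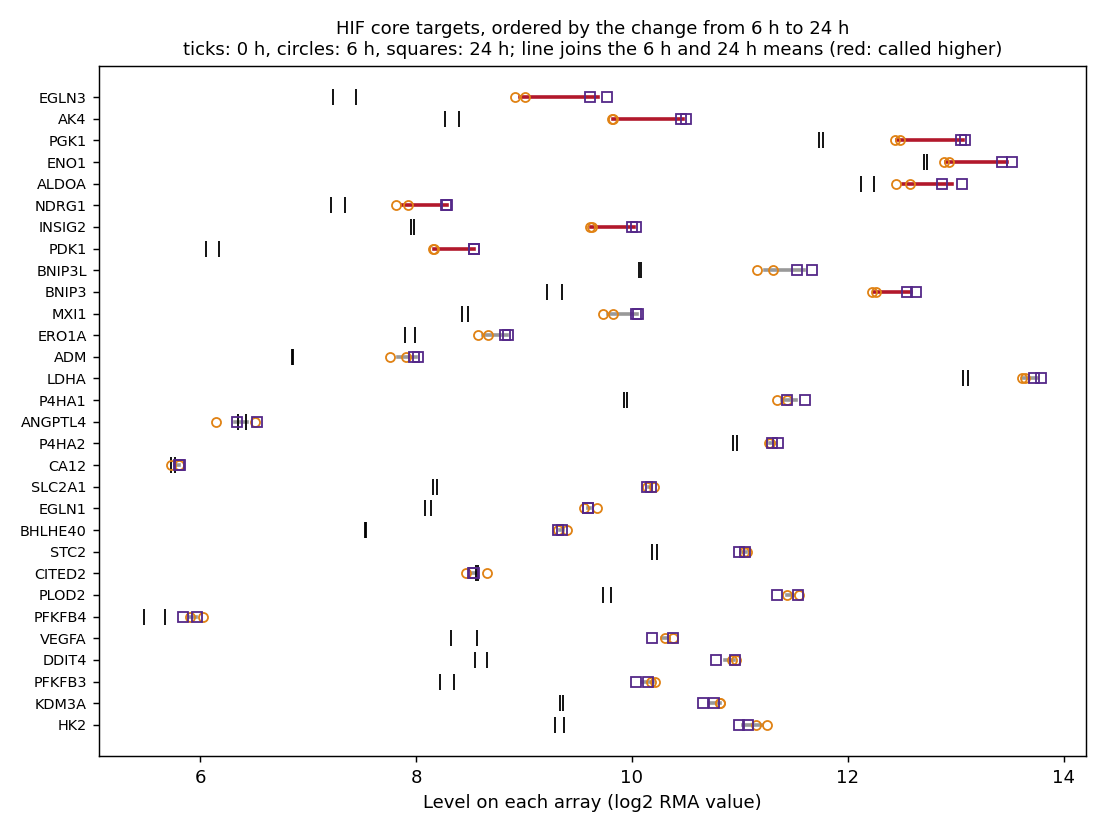
Log2 RMA values (horizontal) of 30 HIF core targets, ordered from bottom to top by their change from 6 to 24 h; ticks are 0 h arrays, circles 6 h, squares 24 h, and a line joins the 6 h and 24 h means, red where the gene was called higher. EGLN3 (0.72) and AK4 (0.66) stand at the top with circles and squares apart, while SLC2A1 (-0.02) and BHLHE40 (-0.03) have them on top of each other.

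Glycolysis was the list with the largest share of rises among those described. Of its 22 measured genes 10 rose (45.5%, against 1.85% of all genes) and none fell, and the median was 0.22. The rises covered most steps between glucose phosphorylation and phosphoenolpyruvate: HK1, GPI, PFKP, PFKL, ALDOA, ALDOC, TPI1, PGK1, ENO1 and ENO2. PFKP, the platelet form of phosphofructokinase, read 9.70 and 9.81 at 6 h and 10.47 and 10.65 at 24 h (0.81 ± 0.08, limma adjusted p 0.003647). PGK1, whose promoter is printed above, read 11.73 and 11.77 at 0 h, 12.49 and 12.44 at 6 h, 12.91 and 12.82 at 12 h, and 13.05 and 13.08 at 24 h. The later rise was 0.61 ± 0.06 (adjusted p 0.003726), about as large as its early rise of 0.71. ENO1 had risen by only 0.19 at 6 h and gained 0.56 ± 0.06 afterwards (adjusted p 0.004693), from 12.89 and 12.94 to 13.43 and 13.52. PFKL, the liver form of phosphofructokinase, likewise gained 0.10 early and 0.60 later. GPI rose by 0.54, ALDOC by 0.68, ENO2 by 0.65, TPI1 by 0.48, ALDOA by 0.46 and HK1 by 0.36. LDHA, which turns pyruvate into lactate, changed by 0.13 (adjusted p 0.2486), GAPDH by 0.23 (adjusted p 0.08502) and PKM by 0.10, and none of the 3 passed. Of the 10 calls none was left without 6 h replicate 1, 5 without 6 h replicate 2, 7 and 3 without 24 h replicates 1 and 2, and 6 without either 0 h array.

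Some neighbouring enzymes rose as well. In glycogen metabolism 3 of 14 genes rose (21.4%, against 1.85% of all genes) and none fell: GBE1, the branching enzyme (0.61 ± 0.06, limma adjusted p 0.003346), PGM1, phosphoglucomutase (0.59 ± 0.05, 0.003284), and PYGM, muscle glycogen phosphorylase (0.75 ± 0.12, 0.02326). GBE1 read 11.27 on both 6 h arrays and 11.91 and 11.85 at 24 h. PDK1 (0.38) and PDK3 (0.40), kinases that switch off pyruvate dehydrogenase, were the 2 of 11 members called in that list (18.2%, against 2.78% of all genes). All 5 of these calls were lost without 6 h replicate 1, where the adjusted p was 0.0517 for GBE1 and PGM1, 0.172 for PYGM, 0.212 for PDK1 and 0.221 for PDK3. PYGM was also lost without 6 h replicate 2 (0.141) or 24 h replicate 2 (0.0835). PDK1 and PDK3 were lost without any 1 array of 0, 6 or 24 h, at adjusted p from 0.0668 to 0.221. None of 43 nuclear-encoded respiratory chain genes passed in either direction by limma (8 had an unadjusted p under 0.05), and their median was -0.08.

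TXNIP, an arrestin that limits glucose uptake and binds thioredoxin, went down first and up later. It read 10.56 and 10.57 at 0 h, 10.28 and 10.33 at 6 h, 11.13 and 11.09 at 12 h, and 11.45 and 11.44 at 24 h. The 6 h arrays were the lowest of all 8 and the 24 h arrays the highest. The early fall was -0.26 (limma adjusted p 0.042), the later rise 1.14 ± 0.05 (adjusted p 0.000229), and the 24 h level exceeded that at 0 h by 0.88. TXNIP was the only 1 of 4 measured genes of its list to be called.

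The other 4 rises that turned back were HHAT, DUSP6, KDR and S100A2. The early falls of HHAT (-0.32 from 0 to 6 h, limma adjusted p 0.108) and KDR (-0.25, 0.0729) were not themselves called. DUSP6, a phosphatase that ERK signalling induces and that switches ERK off, read 9.21 and 9.27 at 0 h, 8.85 and 8.85 at 6 h, 8.96 and 8.86 at 12 h, and 9.54 and 9.41 at 24 h (0.62 ± 0.07 from 6 to 24 h, limma adjusted p 0.006006). The recovery of DUSP6 thus came after 12 h, and the 24 h values lay above those of 0 h. HHAT, the acyltransferase that adds palmitate to hedgehog ligands, rose by 0.73 ± 0.09, or 1.66-fold. KDR (VEGF receptor 2), read at 4.67 and 4.73 at 6 h and 5.07 and 4.97 at 24 h, and S100A2 (a calcium-binding protein) returned to within 0.15 of their 0 h means. KDR and S100A2 lost their calls without any 1 array of 0, 6 or 24 h, at adjusted p from 0.0699 to 0.245, and S100A2 also without either 12 h array (0.0534). DUSP6 lost its call without 6 h replicate 1 (0.0703) or 6 h replicate 2 (0.0652), and HHAT without any 1 of the 6 h or 24 h arrays (0.0501 to 0.108).

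The 5 falls that turned back followed an early rise of at least 0.25. That of EDIL3 was not itself called (0.37 from 0 to 6 h, limma adjusted p 0.0639). EDIL3, a secreted integrin ligand, read 7.37 on both 0 h arrays, 7.69 and 7.80 at 6 h, 7.49 and 7.24 at 12 h, and 7.16 and 7.09 at 24 h, ending below its starting level (-0.62 ± 0.09 from 6 to 24 h, limma adjusted p 0.0159). SLC6A15, a neutral amino acid transporter, read 8.84 and 8.80 at 0 h, 9.39 and 9.34 at 6 h, and 8.98 and 8.87 at 24 h (-0.44 ± 0.06, adjusted p 0.01569). PTCH1, the hedgehog receptor, peaked at 10.84 and 10.80 at 6 h and read 10.57 and 10.49 at 24 h against 10.47 and 10.48 at 0 h (-0.29, adjusted p 0.04109). ASPM, a spindle pole protein of dividing cells, fell by 0.30 and CSTF3, a subunit of the mRNA cleavage machinery, by 0.31. For SLC6A15, PTCH1, ASPM and CSTF3 the 24 h mean was within 0.15 of the 0 h mean, and none of the 5 was called between 24 and 0 h. Each of the 5 lost its call without 6 h replicate 1 (adjusted p 0.108 to 0.266), 6 h replicate 2 (0.105 to 0.179) or 24 h replicate 2 (0.0643 to 0.117). All but SLC6A15 also lost it without 24 h replicate 1 (0.0655 to 0.0781). CSTF3, ASPM and PTCH1 lost it without either 0 h array (0.0784 to 0.11), ASPM (0.0566) and PTCH1 (0.052) also without either 12 h array.

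Genes of the muscle fibre also rose between 6 and 24 h. Of 51 measured skeletal muscle contractile and membrane genes 13 rose and 1 fell, together 27.5% of the list against 2.78% of all genes, with a median of 0.18. Myoglobin (MB), the oxygen-binding protein of muscle, read 7.79 and 7.81 at 0 h, 8.17 and 8.23 at 6 h, 8.52 and 8.56 at 12 h, and 9.24 and 9.48 at 24 h. The rise from 6 to 24 h was 1.16 ± 0.08, or 2.23-fold (limma adjusted p 0.001079). Of the troponins, the calcium switch of the thin filament, 4 rose. TNNI2, fast troponin I, read 6.78 and 6.65 at 6 h and 7.63 and 7.68 at 24 h (0.94 ± 0.06, adjusted p 0.0009494). TNNC2, fast troponin C, had not moved by 6 h (5.79 and 5.95, against 5.79 and 6.08 at 0 h), read 5.97 and 6.18 at 12 h and 6.68 and 6.69 at 24 h (0.81 ± 0.11, adjusted p 0.01513). The slow forms TNNC1 and TNNI1 rose by 0.70 and 0.61, while TNNT1 (0.09) and TNNT3 (0.29) did not pass. MYL11, a fast myosin light chain, rose by 0.76 and MYBPC2, the fast myosin-binding protein C, by 0.58, both with 6 h levels below those of 0 h. MYL4 and MYL2 each rose by 0.41, MYH8, the perinatal myosin heavy chain, by 0.45, and ENO3, muscle enolase, by 0.38.

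ATP2A1, the calcium pump of fast muscle, was the 1 contractile or membrane gene that fell (-0.31, limma adjusted p 0.0318), and skeletal actin ACTA1 lay at -0.34 (adjusted p 0.0559). Of 15 myogenic regulators none rose and 1 fell, the growth inhibitor myostatin (MSTN, -0.49 ± 0.08, adjusted p 0.02844), which lost its call without any 1 array of 0, 6 or 24 h (0.0506 to 0.163). The 1 regulator called is 6.7% of that list, against 2.78% of all genes, and 6 of the 15 had an unadjusted p under 0.05. MYOD1 changed by -0.06, MYOG by 0.11 and desmin (DES) by -0.04. The 13 rises became 2 and 3 without 6 h replicates 1 and 2, 7 and 6 without 24 h replicates 1 and 2, and 9 without either 0 h array; MB and TNNI2 were called in each case. PIPOX, an oxidase of pipecolic and sarcosine metabolism that marks tumours with the PAX3 fusion, read 9.80 and 9.78 at 6 h and 10.76 and 10.75 at 24 h (0.96 ± 0.06, adjusted p 0.0006107). Of 25 genes associated with PAX3-FOXO1, PIPOX and DCX (0.31) rose (8.0%, against 1.85% of all genes) and none fell. DCX lost its call without any 1 of the 8 arrays (adjusted p 0.0507 to 0.245), while PIPOX kept it.

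**Figure D4:**
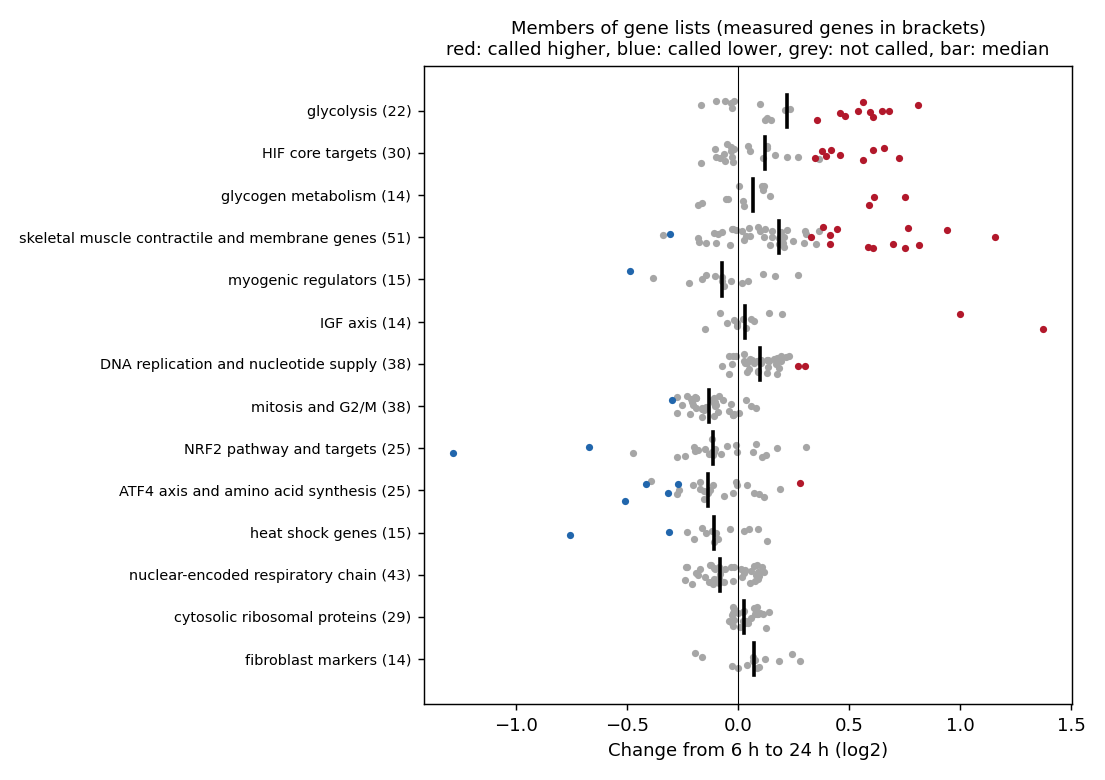
Change from 6 to 24 h (log2, horizontal) of each measured member of 14 gene lists (vertical, number measured in brackets); red points were called higher, blue lower, grey not called, and a black bar is the list's median. Glycolysis (10 of 22) and muscle contractile genes (13 of 51) hold the most red points, and the medians of mitosis (-0.13), NRF2 (-0.11) and ATF4 (-0.14) genes lie left of 0.

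Defence against oxidants was the place of the largest fall. NQO1, a quinone reductase that NRF2 controls, read 9.77 and 9.64 at 0 h, 9.21 and 9.22 at 6 h, 8.62 and 8.54 at 12 h, and 8.02 and 7.85 at 24 h. Each time was below the one before, and the level at 24 h was 2.43-fold below that at 6 h (-1.28 ± 0.08, limma adjusted p 0.0006168). GCLM read 8.14 and 7.99 at 6 h and 7.40 and 7.39 at 24 h (-0.67 ± 0.07, adjusted p 0.004693), and was already at 7.29 and 7.37 at 12 h. The call for GCLM was lost without 6 h replicate 1 (0.0522) or 24 h replicate 2 (0.0501); that for NQO1 was kept. Of 25 measured genes of the NRF2 pathway these 2 fell (8.0%, against 0.936% of all genes) and none rose, with a median of -0.11. The heme oxygenase HMOX1 had fallen by 0.74 at 6 h and changed by -0.05 afterwards, GCLC, the catalytic partner of GCLM, by -0.12, the thioredoxin reductase TXNRD1 by -0.20 and the cystine carrier SLC7A11 by -0.27, and none of the 4 passed between 6 and 24 h. GPX3, a secreted glutathione peroxidase, read 6.53 and 6.77 at 6 h and 5.89 and 5.62 at 24 h (-0.90 ± 0.13, adjusted p 0.01887), a call lost without any 1 of the 4 arrays of 6 or 24 h (0.0594 to 0.136). GSTM3, a glutathione transferase, rose by 0.50 ± 0.06 (adjusted p 0.008789), a call lost without 6 h replicate 1 (0.0877), 6 h replicate 2 (0.0867) or 24 h replicate 2 (0.0501).

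Among stress genes driven by ATF4, the factor of the amino acid and unfolded protein responses, 4 of 25 measured fell and 1 rose, where 0.936% of all genes fell and 1.85% rose, and the median was -0.14. ASNS, asparagine synthetase, read 9.15 and 9.19 at 0 h, 8.63 on both 6 h arrays, and 8.06 and 8.18 at 24 h (-0.51 ± 0.06, limma adjusted p 0.009891). ATF5 fell by 0.42, the pseudokinase TRIB3 by 0.32 and the phosphatase subunit PPP1R15A by 0.27, while CBS, which makes cystathionine, rose by 0.28. With the probe set of largest interquartile range for each gene only 1 fall was called, and ATF5 was not. The count of 4 falls was 0 without 6 h replicate 1, 6 h replicate 2 or 24 h replicate 1, and 1 without 24 h replicate 2 or either 0 h array, and CBS lost its call without any 1 array of 0, 6 or 24 h (0.0801 to 0.212). None of 21 ER chaperones and unfolded protein sensors and none of 16 aminoacyl-tRNA synthetases passed by limma (2 and 5 had an unadjusted p under 0.05), with medians of 0.02 and -0.10. Of 15 heat shock genes 2 fell (13.3%, against 0.936% of all genes): the small heat shock protein HSPB8, from 7.78 and 7.81 to 7.10 and 6.97 (-0.76 ± 0.11, adjusted p 0.02098), and HSPH1, a nucleotide exchange factor (-0.31 ± 0.06, adjusted p 0.03968). Both lost their calls without any 1 array of 6 or 24 h (HSPB8 at 0.0727 to 0.144, HSPH1 at 0.0615 to 0.229), HSPH1 also without either 0 h array (0.0926).

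Other falls continued early ones or came late. ANXA1, a phospholipid-binding mediator that restrains inflammation, read 11.26 on both 0 h arrays, 10.58 and 10.50 at 6 h, and 9.89 and 9.90 at 24 h (-0.65 ± 0.06, limma adjusted p 0.003284). Its call was lost without 6 h replicate 1 alone (0.0517). TAGLN, a smooth muscle actin-binding protein, fell by 0.64, SH3BGR by 0.65 and the membrane repair protein MYOF by 0.61. SH3BGR (0.0517) and MYOF (0.0594) lost their calls without 6 h replicate 1, and TAGLN without 24 h replicate 1 (0.0514) or 24 h replicate 2 (0.053). NIBAN1 read 5.33 and 5.40 at 0 h, 5.28 and 5.35 at 6 h, 4.66 and 4.06 at 12 h, and 4.45 and 4.48 at 24 h, so that its fall came after 6 h (-0.85 ± 0.16, adjusted p 0.04112). That call was lost without any 1 array of 0, 6 or 24 h (0.0921 to 0.212). PAWR, a pro-apoptotic regulator, fell by 0.64, from 8.43 and 8.25 at 6 h to 7.76 and 7.66 at 24 h; the call was lost without 6 h replicate 1 (0.0703) or 24 h replicate 2 (0.0539). SUSD5 (-0.72), PPFIA2 (-0.69) and ATP10D (-0.65) were the other late falls among the largest 12; all 3 lost their calls without 6 h replicate 1 (0.0703 to 0.117), and SUSD5 and PPFIA2 also without either 24 h replicate (0.0708 to 0.0881).

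Other rises lay outside muscle and sugar metabolism. IQGAP2, a scaffold of the actin cytoskeleton, read 7.02 on both 0 h arrays, 7.26 and 6.93 at 6 h, 7.36 and 7.31 at 12 h, and 8.13 on both 24 h arrays (1.03 ± 0.10, limma adjusted p 0.003726), with most of the rise after 12 h. Without 24 h replicate 2 its adjusted p was 0.0501, and without 24 h replicate 1 it was also just above 0.05. RAB26, a GTPase of secretory granules, rose by 0.84 and lost its call without 6 h replicate 1 (0.0594). TGFBI, a matrix protein that TGF-beta induces, rose by 0.63 and also lost its call without that array (0.0517). COL15A1, a basement membrane collagen, rose by 0.70 and the lysyl oxidase LOX, which cross-links collagen, by 0.55. The early rise of LOX from 0 to 6 h (0.30) was not itself called (limma adjusted p 0.146). COL15A1 lost its call without any 1 array of 0, 6 or 24 h (0.075 to 0.176). LOX lost it without 6 h replicate 1 (0.199), 6 h replicate 2 (0.173), 24 h replicate 1 (0.0708) or either 0 h array (0.0718). In the interferon list 2 of 20 genes rose (10.0%, against 1.85% of all genes), IFITM1 by 0.64 and ISG20 by 0.63. IFITM1 lost its call without 6 h replicate 1 (0.18), 6 h replicate 2 (0.124), 24 h replicate 2 (0.0835) or either 0 h array (0.0545), and ISG20 without any 1 of the 6 h or 24 h arrays (0.0652 to 0.151). Fatty acid-binding proteins FABP7 (0.83) and FABP3 (0.48) were the 2 of 28 lipid genes called (7.1%, against 2.78%). FABP7 had begun to rise by 6 h and kept its call in all 20 alternatives tried; FABP3 lost it without 6 h replicate 1 (0.158), 6 h replicate 2 (0.127), 24 h replicate 2 (0.0606) or either 0 h array (0.0539).

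In sterol and fatty acid synthesis 3 of 21 genes were called (14.3%, against 2.78%), all of them regulators that continued an early rise. INSIG2 had made most of its rise by 6 h, from 7.98 and 7.95 to 9.63 and 9.61, and gained 0.39 more, while INSIG1, its sterol-sensing partner protein, gained 0.46 and the transcription factor SREBF1 0.35. INSIG1 and INSIG2 lost their calls without any 1 of the 6 h or 24 h arrays (0.0501 to 0.142), and SREBF1 without any 1 array of 0, 6 or 24 h (0.096 to 0.245).

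Cell cycle genes were called at a share near that of all genes (2.78%). Of 38 mitotic genes 34 lay below 0, with a median of -0.13 (0.002 over all genes), and ASPM alone was called (2.6%). Of these 38, 17 had an unadjusted p under 0.05 by limma, against 2277 of 11963 genes. Their median change was 0.15 from 0 to 6 h and 0.001 from 0 to 24 h. Whether the list as a whole turned back was not tested. Of 38 genes of DNA replication and nucleotide supply 32 lay above 0, with a median of 0.10, and TK1 (0.30 ± 0.05, limma adjusted p 0.03609) and FEN1 (0.27 ± 0.05, 0.04246) were called higher (5.3%). In this replication list 12 genes had an unadjusted p under 0.05. TK1 and FEN1 lost their calls without any 1 array of 0, 6 or 24 h (0.0705 to 0.229), FEN1 also without either 12 h array (0.0541). The proliferation marker MKI67 differed by -0.16, the CDK inhibitor CDKN1A by 0.26 (adjusted p 0.0718) and MYC by 0.15, and none of the 3 passed. Of 28 proteasome genes 27 lay below 0, with a median of -0.16, and 19 had an unadjusted p under 0.05. In this list 2 were called lower and 1 higher (10.7%, against 2.78% of all genes). PSMD1 and PSMD3, subunits of the regulatory particle, fell by 0.30 and 0.32, while the activator subunit PSME1 rose by 0.51. PSMD1 lost its call without any 1 array of 0, 6 or 24 h (0.0791 to 0.205), PSMD3 without any 1 of the 8 arrays (0.0507 to 0.24) and PSME1 without any 1 of the 6 h or 24 h arrays (0.0514 to 0.112). None of 29 ribosomal protein genes, 23 immediate early genes, 12 p53 targets and 10 reference genes passed in either direction by limma, while 2, 8, 4 and 4 had an unadjusted p under 0.05.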

How the data were processed

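Total RNA (10 µg) of SJRH30 cultures was amplified, labelled with biotin and hybridised to 3′-based Affymetrix arrays, per the labels' protocols. The authors deposited log2 summaries per probe set, made with RMA per the submitters' processing notes; its software is not given in the sources used here. RMA equalises arrays, so each change is relative to the other transcripts of an array. Probe sets were named from a platform annotation of 2016: 19064 had 1 symbol, 1043 several, 2108 none, and 62 were controls. Of the symbols, 19052 matched a RefSeq gene (GRCh38.p14) by Entrez identifier. A gene was read from its brightest probe set on average (4310 genes had several); no dim probe set was removed.

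A limma model (version 3.58.1, R 4.3.3) with 1 mean per time used all 8 arrays (lmFit, eBayes; 4 residual degrees of freedom, 3.68 from the prior), and 24 h minus 6 h was tested two-sided with Benjamini-Hochberg adjustment. Replicates are biological per the labels, but nothing says they were separate cultures; p-values then measure only the spread between these arrays. The number of arrays limits the precision. Another probe set was called in the same direction for 35 of 116 called genes with several, and in the opposite direction for 0.

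The genes named are the 12 largest called rises and falls, the 6 largest of each in each class, up to 4 called members (or the 2 with the highest mean) of each list described, and 18 fixed genes; further list members are named to account for a count. The members and lists were chosen with earlier results of these data known. No set test was made. The procedure was tested on simulated data. Promoters are the 250 bases upstream of the RefSeq start, searched on both strands. Alternatives changed the arrays, the variance prior, the dim filter, the scaling, the probe set rule and the thresholds.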

Additional observations from a re-analysis of the deposited data

Results flagged for a closer look

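Probe sets that stand for no single gene were kept out of the comparison. Some of them differed between 6 and 24 h in a separate limma fit to all 22277 probe sets, with adjustment over all of these. Of the 2108 unnamed probe sets 19 were called, 13 higher and 6 lower at 24 h, with changes from -0.47 to 2.85; the largest of these rises exceeded that of SPAG4 (2.07), the largest among named genes. Of the 1043 that match several genes 9 were called, 8 higher and 1 lower. Of the 62 control probe sets 1 was called, one for the 5′ end of the large ribosomal RNA (28S), which averaged 11.6 at 6 h and 11.2 at 24 h (-0.41 ± 0.07, adjusted p 0.03278). None of these enters the counts of genes.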

How the results depend on the processing

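The count of 333 genes moved with the variance estimate and the filter more than with the scaling. It was 184 with only the 6 h and 24 h arrays in the fit, 1039 with an intensity trend in the prior variance, 623 without the dimmest 25% of genes, 1037 without the dimmer 50%, and 52 at an adjusted p under 0.01. The continued, turned back and late genes (111, 10 and 212) became 195, 30 and 814 with the intensity trend and 180, 36 and 821 without the dimmer 50%. Without the dimmest 25% there were 18 turned back and 455 late, and with a dividing change of 0.15 there were 28 turned back. Where the change from 0 to 6 h had itself to be called, 80 continued, 7 turned back and 246 were late. Leaving out 1 array gave 18 to 359 genes in all, 13 to 112 continued, 0 to 8 turned back and 5 to 239 late; the lone array left in a group was assumed to vary like the other groups, and since no called gene's replicates overlapped, this could not turn a direction. Replicate numbers did not pair the arrays (deviations of same-numbered 6 h and 24 h arrays correlated at 0.0643). With the replicate number as a block 157 genes were called, all among the 333, of which 64 continued, 5 turned back and 88 were late. Further quantile normalization gave 323 genes, of which 306 were among the 333, and centring on medians 305, of which 300 were. All 333 kept their direction in every one of these fits where they were tested. Settings of the variance, the dim filter, the block and the 0 h and 12 h arrays leave the change itself as it is. Only the scaling and the probe set rule could turn a direction, and 332 kept theirs with the probe set of largest interquartile range. No named gene reversed. With the mean of all probe sets of a gene, ATF5, FEN1, NIBAN1, PAWR and PTCH1 lost their calls. FABP7, IGFBP2, IGFBP5, ITGB2, MB, MIF, NQO1, PIPOX, TFF3 and TXNIP passed in all 20 alternatives, and SPAG4 and TNNI2 in all 19 that tested them. The alternatives are not all distinct. Leaving out either 0 h array gives the same test of 24 h against 6 h, and leaving out either 12 h array the same as leaving out both. Dim genes lie near background, where cross-hybridisation shrinks differences.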
